A study of Homo sapiens with 18 samples.

Results

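The E2F family consists of the 8 transcription factors E2F1 to E2F8, and the DP proteins TFDP1 and TFDP2 are the dimerization partners of most of them. Their mRNA levels were followed in SJSA-1 osteosarcoma cells, a cell line with amplified MDM2 and CDK4 and with wild-type p53, across 6 conditions with 3 replicates each. The 10 genes were taken by their symbols from the 23368 gene rows of the deposited tables, and all 10 had reads. The DMSO group received no inhibitor. The Nutlin group received the MDM2 antagonist Nutlin at 20 µM for the last 6 h, the dose given in the labels, while the study's scheme of the treatments also writes another dose. PD0332991 (Palbociclib), an inhibitor of CDK4 and CDK6, was given at 10 µM for 24 h and then removed for the last 6 h (PD24), or was kept for all 30 h (PD30). The N+PD24 and N+PD30 groups received Nutlin in the last 6 h on top of these schedules, after removal of PD0332991 in N+PD24 and in its presence in N+PD30. All cells came from this 1 line, so the comparisons hold for these cells. The labels number the replicates without naming separate cultures, whereas the study calls them biological replicates, and p-values measure the spread between these libraries only.

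E2F proteins bind promoters of genes needed for entry into S phase. E2F1, E2F2 and E2F3 are classed as activators, which are held in check by the retinoblastoma protein until cyclin D and CDK4 or CDK6 phosphorylate it. E2F4 and E2F5 mainly repress transcription together with the pocket proteins RBL1 and RBL2, and E2F6 represses without pocket proteins, as part of a Polycomb complex. The atypical members E2F7 and E2F8 bind DNA without a DP partner and repress E2F target genes late in S phase. Several members are themselves E2F target genes, and E2F7 is also known as a target of p53.

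Promoter sequences from RefSeq (GRCh38.p14) were taken for 8 of the 10 genes. E2F5 was not included in the search, and E2F8 had no entry. The 11 windows spanned 250 bases before to 50 bases after a start site. They were searched on both strands for the words TTTCCCGC, TTTCGCGC, TTTGCCGC and TTTGGCGC, which are typical of E2F sites and occur in 3.31% of 35116 promoters. At least 1 word was found in 4 genes, E2F1, E2F2, E2F3 and TFDP1, and none in the windows of E2F4, E2F6, E2F7 and TFDP2. The bases from -150 to -1 before the start site are given for the genes with a word and for E2F7, whose mRNA changed most between the conditions among the genes without a word. Capitals mark the matches. The stretches lie at chr20:33686386-33686535 on the minus strand (E2F1), chr1:23531234-23531383 on the minus strand (E2F2), chr6:20401729-20401878 on the plus strand (E2F3), chr13:113584603-113584752 on the plus strand (TFDP1) and chr12:77065570-77065719 on the minus strand (E2F7).
E2F1: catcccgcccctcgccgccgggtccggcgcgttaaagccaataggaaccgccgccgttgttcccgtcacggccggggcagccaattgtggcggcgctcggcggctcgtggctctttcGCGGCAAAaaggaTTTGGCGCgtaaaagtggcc
E2F2: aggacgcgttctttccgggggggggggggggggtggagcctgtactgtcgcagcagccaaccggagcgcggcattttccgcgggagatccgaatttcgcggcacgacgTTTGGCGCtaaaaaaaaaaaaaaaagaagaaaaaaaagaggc
E2F3: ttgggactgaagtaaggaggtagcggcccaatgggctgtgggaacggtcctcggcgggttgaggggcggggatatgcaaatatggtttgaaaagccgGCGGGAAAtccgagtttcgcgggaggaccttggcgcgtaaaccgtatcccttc
TFDP1: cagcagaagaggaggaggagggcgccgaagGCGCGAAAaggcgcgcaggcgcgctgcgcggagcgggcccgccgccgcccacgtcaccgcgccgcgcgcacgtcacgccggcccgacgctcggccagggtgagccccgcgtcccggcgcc
E2F7: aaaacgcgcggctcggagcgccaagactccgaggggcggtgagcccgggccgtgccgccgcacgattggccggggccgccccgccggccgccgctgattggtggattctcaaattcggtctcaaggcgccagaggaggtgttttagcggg
The word TTTGGCGC starts 20 bases before the start site in E2F1 and 42 bases before it in E2F2. A match to these letters is a description of the sequence and no evidence of binding.

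Read totals ranged from 12704845 to 40231041 per library, with a median of 29608936, and levels are given as CPM, that is read counts scaled to the total of the library. Nutlin left its mark on a known target gene in every library that received it. The p53 target CDKN1A rose from 184 ± 38.0 CPM in DMSO to 3984 ± 146 CPM in Nutlin (SD, n = 3), 4648 ± 571 CPM in N+PD24 and 2377 ± 303 CPM in N+PD30. Without Nutlin, CDKN1A had 96.9 ± 8.27 CPM in PD24 and 126 ± 12.8 CPM in PD30. Of 9 osteoblast lineage markers, 6 reached a mean of 1 CPM in all groups, among them RUNX2 and COL1A1, whereas SP7, IBSP and BGLAP stayed below 1 CPM. The summed level of these 9 markers was 2863 to 6465 CPM per library. Of blood markers, CD14 had 9.11 ± 5.33 CPM in DMSO, PTPRC 0.0779 ± 0.0554 CPM, and CD3E was at 0. The sum was 1.85 to 15.4 CPM for 3 endothelium markers and 0.92 to 2.73 CPM for 4 epithelium markers. The endothelium sum was 1.85 to 3.04 CPM in DMSO and higher in every library of the other groups, with 6.19 to 8.29 CPM in Nutlin, 4.45 to 6.59 CPM in PD24, 6.34 to 8.37 CPM in PD30, 10.6 to 15.4 CPM in N+PD24 and 6.06 to 8.81 CPM in N+PD30, and its part in the results was not tested. Replicate 3 stood apart for several E2F genes, as it held the highest E2F3, E2F6 and E2F7 level of its group in 6 of 6 groups and the lowest E2F1 level in 5 of 6.

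Under PD0332991, most of the E2F mRNA was E2F4 mRNA. Per kilobase of transcript, which allows a comparison between genes, the level in DMSO was 33.8 CPM per kb for E2F1, 3.67 for E2F2, 12.5 for E2F3, 35.5 for E2F4, 2.41 for E2F5, 11.9 for E2F6, 15.3 for E2F7 and 8.32 for E2F8. The 3 activators then made up 40.6 ± 2.16% of the summed E2F level (SD, n = 3), the repressors E2F4 to E2F6 40.4 ± 0.757%, and the atypical members 19.0 ± 2.32%. In PD30 the activators held 19.4 ± 0.723%, the repressors 79.0 ± 1.27% and the atypical members 1.61 ± 0.804%. The repressor share was thus higher in each PD0332991 library than in any library without it, with 66.8% as the lowest value under PD0332991 and 56.8% as the highest without it. Nutlin alone gave 31.5 ± 1.08% activators, 53 ± 3.35% repressors and 15.5 ± 3.60% atypical members. When both inhibitors were combined, the atypical share was 10.5 ± 2.94% in N+PD24 and 11.6 ± 6.41% in N+PD30. The summed E2F level was 123 ± 8.84 CPM per kb in DMSO and lay between 52.6 ± 5.42 and 75.1 ± 8.75 CPM per kb in the other groups. These shares rest on the length of 1 annotated transcript per gene and carry no test.

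E2F1, the best known activator, responded to both inhibitors. E2F1 (chr20:32263283-32274191 on hg19) had 90.5, 91.9 and 90.2 CPM in the DMSO replicates and 35.9, 38.5 and 50.0 CPM in Nutlin. In the groups with PD0332991 it had 7.23, 5.44 and 2.73 CPM in PD24, 4.65, 3.89 and 1.85 CPM in PD30, 2.25, 1.79 and 1.55 CPM in N+PD24, and 3.31, 3.66 and 1.74 CPM in N+PD30. DMSO, Nutlin and the 4 groups with PD0332991 formed 3 separate levels, whereas neighbours among these 4 groups overlapped. In edgeR's quasi-likelihood test on all genes, with Benjamini-Hochberg adjustment, E2F1 was 2.01-fold lower in Nutlin than in DMSO (log2 fold change -1.01 ± 0.12 (SE), adjusted p = 6.66e-05). It was 26.7-fold lower in PD30 than in DMSO (-4.74 ± 0.26, adjusted p = 5.66e-07). In these bulk samples, fewer cells that express a gene and less RNA per cell cannot be told apart.

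E2F2, an activator linked to proliferation, fell further than E2F1 under Nutlin alone. E2F2 (chr1:23832930-23857725) had 20.6, 18 and 18.6 CPM in DMSO, but 2.56, 2.46 and 3.02 CPM in Nutlin. The values were 0.713, 0.548 and 0.820 CPM in PD24 and 1.10, 0.695 and 0.568 CPM in PD30. With both inhibitors they were 1.48, 2.92 and 2.20 CPM in N+PD24 and 0.708, 0.437 and 0.533 CPM in N+PD30. All N+PD24 libraries thus lay above all libraries of PD24, PD30 and N+PD30, and they overlapped with Nutlin, on 36 to 108 reads per library in N+PD24 and 9 to 33 in the other 3 groups. The fall under Nutlin was 6.52-fold (log2 fold change -2.71 ± 0.14, edgeR adjusted p = 1.18e-06), and that in PD30 against DMSO was 24.7-fold (-4.63 ± 0.21, adjusted p = 1.57e-07).

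The third activator, E2F3, did not follow the other two. E2F3 (chr6:20402110-20493945) had 58.8, 60.3 and 69.5 CPM in DMSO, 52.7, 50.4 and 60.9 CPM in PD30 and 36.2, 38.8 and 43.3 CPM in Nutlin. Its levels in DMSO, PD24 and PD30 overlapped, as did those in the 3 groups with Nutlin, and the former 3 groups lay above the latter in every library. Thus E2F3 levels separated by Nutlin, though narrowly. By contrast, E2F1 levels separated by PD0332991, and by Nutlin except in the continued presence of PD0332991, where PD30 and N+PD30 overlapped. The lowest E2F3 level without Nutlin was 47.8 CPM (PD24), and the highest with it was 47.4 CPM (N+PD30). In Nutlin against DMSO E2F3 fell 1.46-fold (log2 fold change -0.55 ± 0.10, edgeR adjusted p = 0.00150). In PD30 against DMSO the change was -0.22 ± 0.10 (adjusted p = 0.102). Nutlin lowered E2F3 in N+PD24 against PD24 (-0.49 ± 0.16, limma adjusted p = 0.0315). In N+PD30 against PD30 the change did not pass (-0.31 ± 0.12, edgeR adjusted p = 0.114).

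Among the repressors, E2F4 and E2F6 stayed within a narrow range. E2F4 (chr16:67226058-67232821), the main E2F of resting cells, had group means between 61.6 ± 8.54 CPM in Nutlin and 90.8 ± 8.22 CPM in PD24. All 3 PD24 libraries (81.3, 95.8 and 95.2 CPM) lay above the libraries of every other group. The rise over DMSO was 1.23-fold and just missed the threshold (log2 fold change 0.30 ± 0.11, edgeR adjusted p = 0.0506). E2F6 (chr2:11584501-11606303) ranged from 23.4 ± 1.21 CPM in N+PD24 to 38.5 ± 4.77 CPM in DMSO, and only N+PD24 did not overlap with its neighbour in the order of groups.

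E2F5 was the member that Nutlin lowered and continuous PD0332991 raised. E2F5 (chr8:86089389-86129387) had 5.15, 4.68 and 4.36 CPM in DMSO, and merely 0.492, 0.599 and 0.700 CPM in Nutlin, on 15 to 19 reads per library. The levels were 5.64, 3.88 and 5 CPM in PD24, and 7.06, 7.56 and 7.67 CPM in PD30. In N+PD24 they were 1.56, 0.866 and 1.16 CPM, and in N+PD30 3.07, 3.53 and 3.29 CPM. PD30 exceeded every other group, PD24 and DMSO overlapped, and N+PD30, N+PD24 and Nutlin followed in this order with no overlap. Nutlin lowered E2F5 7.26-fold (log2 fold change -2.86 ± 0.21, edgeR adjusted p = 5.67e-06), and PD30 raised it 1.55-fold over DMSO (0.64 ± 0.14, adjusted p = 0.00378). The gene RBIS (listed as C8orf59) overlaps E2F5 on the opposite strand. Reads were counted with a strand setting, but the sources do not say that the library kit keeps the strand, so reads from the overlap cannot be told apart. C8orf59 lay between 26.1 and 32.9 CPM in all DMSO and Nutlin libraries.

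The atypical repressors behaved differently from each other. E2F8 (chr11:19245610-19263167) had 28.1, 28.4 and 36.0 CPM in DMSO and 3.80, 2.46 and 4.20 CPM in Nutlin. In the 12 libraries with PD0332991 it had 0 to 4 reads each. Summed over 3 libraries, 2860 reads in DMSO stood against 7 reads in PD24, 6 in PD30, 5 in N+PD24 and 3 in N+PD30. E2F8 was therefore 515-fold higher in DMSO than in PD30 (95% exact interval for counting error 236 to 1404) and 411-fold higher than in PD24 (199 to 1024). The 4 groups with PD0332991 were not distinguishable from each other at this depth, with a PD30 to N+PD30 ratio of 1.26 (0.269 to 7.78). Nutlin alone lowered E2F8 8.12-fold (log2 fold change -3.02 ± 0.19, edgeR adjusted p = 2.76e-06). The non-coding gene CSRP3-AS1 overlaps E2F8 on the opposite strand.

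E2F7 kept more of its level when Nutlin was present. E2F7 (chr12:77415028-77459349) had 75.2, 77.7 and 110 CPM in DMSO, and 67.7, 43.3 and 72.9 CPM in Nutlin. PD0332991 alone left 11.4, 8.18 and 16.6 CPM in PD24, and 4.82, 3.31 and 9.28 CPM in PD30. With Nutlin added the levels were 28.2, 22.3 and 46.2 CPM in N+PD24 and 18.6, 33.7 and 74.8 CPM in N+PD30. Both combination groups lay above both groups with PD0332991 alone in every library, and the 2 combination groups overlapped with each other and with Nutlin. Replicate 3 was the highest of its group in all 6 groups. E2F7 fell 15.2-fold in PD30 against DMSO (log2 fold change -3.93 ± 0.33, edgeR adjusted p = 1.09e-05). Its change under Nutlin alone, -0.39 ± 0.19, did not pass the test (adjusted p = 0.105).

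TFDP1, the DP protein with the higher level, was lower in Nutlin and in PD30 than in DMSO, while TFDP2 was not lower in PD30. TFDP1 (chr13:114239036-114295788) had 620, 632 and 674 CPM in DMSO and 454, 453 and 470 CPM in Nutlin. It had 321, 301 and 312 CPM in PD24, 303, 308 and 293 CPM in PD30, 231, 201 and 217 CPM in N+PD24, and 266, 248 and 256 CPM in N+PD30. Except for PD24 and PD30, no neighbours in the order of groups overlapped in CPM. Not all of these steps passed a test. N+PD30 against PD30 did not (-0.14 ± 0.09, edgeR adjusted p = 0.329), nor did N+PD30 against N+PD24 (0.15 ± 0.12, limma adjusted p = 0.351). TFDP1 was 1.28-fold lower in Nutlin than in DMSO (log2 fold change -0.36 ± 0.08, edgeR adjusted p = 0.00388) and 2.15-fold lower in PD30 (-1.11 ± 0.07, adjusted p = 1.85e-06). TFDP2 (chr3:141663270-141868386) had similar means in DMSO (81.2 ± 4.54 CPM) and PD30 (79.7 ± 3.59 CPM), and lower ones in Nutlin (58.6 ± 6.58 CPM) and PD24 (58.2 ± 7.73 CPM). The ribosomal protein pseudogene RPL19P6 lies within TFDP2 on the same strand.

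To see what MDM2 inhibition alone did to the family, Nutlin was compared with DMSO. Nutlin lowered 7 of the 10 members and raised none. E2F8, E2F5 and E2F2 fell most (log2 fold changes of -3.02, -2.86 and -2.71), and E2F1, E2F3, TFDP1 and TFDP2 fell less. E2F4 (-0.16 ± 0.11), E2F6 (-0.09 ± 0.11) and E2F7 did not pass the test. Of all 15766 genes tested by edgeR, 28% were lower and 26.6% higher. Scaling by total counts moved the median of all genes from 0.03 to -0.10 on the log2 scale and the split from 4416 lower and 4198 higher genes to 5439 and 3151, but kept the same 7 falls. The fall of TFDP2 (-0.35 ± 0.10, adjusted p = 0.0135) was lost without Nutlin replicate 2 (adjusted p = 0.0541).

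Next, the CDK4/6 inhibitor was compared with DMSO, using the same DMSO libraries for both schedules. In PD30 against DMSO, 5 members were lower, namely E2F1, E2F2, E2F7, E2F8 and TFDP1, and E2F5 alone was higher, where 25.4% of all genes were lower and 22.9% higher. E2F4 (-0.01 ± 0.08), E2F6 (-0.21 ± 0.12) and TFDP2 (-0.04 ± 0.08) did not pass the edgeR test. In PD24 against DMSO, the same 5 members and TFDP2 were lower and none was higher, where 20.8% of all genes were lower and 17.5% higher. After this schedule the log2 fold change was -4.14 ± 0.30 for E2F1, -4.72 ± 0.18 for E2F2 and -2.83 ± 0.24 for E2F7 (adjusted p = 9.62e-06, 1.13e-07 and 3.25e-05). TFDP2 fell 1.37-fold (-0.46 ± 0.11, adjusted p = 0.00948). E2F8 passed the filter on low counts only through DMSO. Its call was also made by edgeR with no filter (adjusted p = 4.03e-11 in PD30 and 5.98e-10 in PD24). The median over the members was -0.66 in PD30 and -0.74 in PD24, with medians of 0.00 and 0.02 over all genes.

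**Figure D1:**
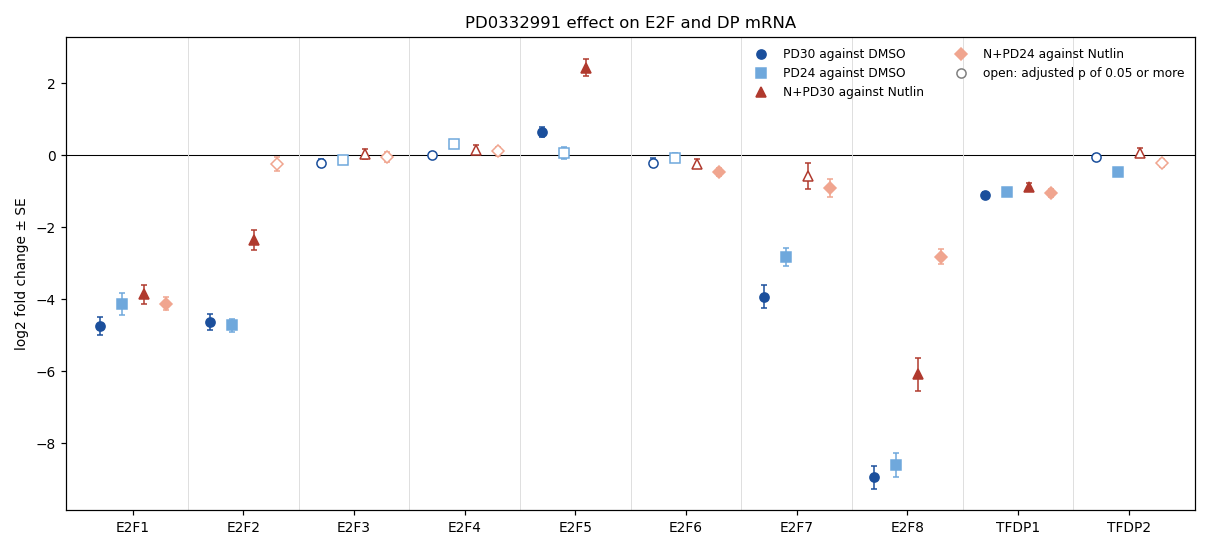
Log2 fold change with SE of each member in 4 comparisons of PD0332991 with the matching group without it (PD30 and PD24 against DMSO, N+PD30 and N+PD24 against Nutlin). Filled symbols passed an adjusted p of 0.05 and open symbols did not, and E2F5 in N+PD24 against Nutlin was below the filter on low values. The values of E2F8 rest on 0 to 4 reads per library with PD0332991 and set no size. E2F1 lies between -4.74 and -3.86 in all 4, while E2F3 and E2F4 have open symbols only.

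PD0332991 was then examined in the presence of Nutlin. In N+PD30 against Nutlin, E2F1, E2F2, E2F8 and TFDP1 (4 members) were lower and E2F5 was higher, where 24.7% of all genes were lower and 24.3% higher by edgeR. E2F1 was 14.5-fold lower (-3.86 ± 0.26, adjusted p = 1.10e-06), E2F2 5.13-fold lower (-2.36 ± 0.28, adjusted p = 6.80e-05), and E2F5 5.38-fold higher (2.43 ± 0.25, adjusted p = 2.47e-05). E2F8 had 304 reads in Nutlin and 3 in N+PD30, a 72.9-fold difference (24.7 to 356). It passed the filter on low counts only through Nutlin, and the call was also made with no filter (edgeR adjusted p = 7.48e-08). E2F7 did not pass the test (-0.58 ± 0.37, adjusted p = 0.219), but did so without N+PD30 replicate 3, its highest library (-1.22 ± 0.25, adjusted p = 0.00165).

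The deposited values of N+PD24 are counts divided by a size factor, so its comparisons were tested by limma on log2(CPM + 0.5), a scale on which changes of low genes are understated. In N+PD24 against Nutlin, which uses the same Nutlin libraries, E2F1, E2F6, E2F7, E2F8 and TFDP1 (5 members) were lower and none was higher, where 20.5% of all genes were lower and 16.4% higher. E2F1 was 17.4-fold lower on this scale (-4.12 ± 0.17, adjusted p = 8.99e-08). E2F8 fell by 2.82 ± 0.20 on this scale, while its reads, 304 against 5, gave a 61.7-fold ratio (26.2 to 192). E2F8 passed the filter on low values only through the Nutlin libraries. The call was also made with no filter (adjusted p = 1.12e-05), and without any 1 of the Nutlin replicates the gene was below the filter. E2F7 fell by 0.92 ± 0.25 (adjusted p = 0.0177), a call that was lost without Nutlin replicate 1, Nutlin replicate 3 or N+PD24 replicate 2 (adjusted p up to 0.0868). E2F2, which PD30 had lowered in the same background, differed by -0.24 ± 0.20 (adjusted p = 0.377). E2F5 was below the filter on low values, and was higher in N+PD24 when it was included by edgeR on the reads recovered from the deposited values (1.05 ± 0.32, adjusted p = 0.0278). Replicates with the same number deviated together in this comparison. With the replicate number as a block in limma, E2F7 had an adjusted p of 5.58e-09 (-0.92 ± 0.10). TFDP2 was then also lower (-0.22 ± 0.09, adjusted p = 0.0424, against 0.148 without the block).

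The effect of removing PD0332991 for 6 h was read from PD30 against PD24. The inhibitor that was kept gave higher E2F5 and TFDP2 and lower E2F7 (2 members higher and 1 lower of 9 tested), where 12.9% of all genes were lower and 12.2% higher by edgeR. E2F5 was 1.5-fold higher (0.58 ± 0.17, adjusted p = 0.0319) and TFDP2 1.33-fold higher (0.42 ± 0.11, adjusted p = 0.0246), while E2F7 was 2.14-fold lower at the very edge of the threshold (-1.10 ± 0.36, adjusted p = 0.0495). E2F5 was lost in 5 of the 6 fits that left out 1 library (PD24 replicate 2 or 3, or any PD30 replicate, adjusted p up to 0.0908), TFDP2 in 4 (replicate 1 or 2 of either group, up to 0.104) and E2F7 in 4 (PD24 replicate 1 or 3, PD30 replicate 1 or 2, up to 0.138). The replicate numbers paired the libraries here. The calls over all genes, 3816 in all, were 1115 lower and 1063 higher without PD30 replicate 1 and 1251 and 1269 without PD30 replicate 3. With the block they rose to 6107, and 3 members were lower, E2F7 (adjusted p = 0.000504), E2F1 (-0.60 ± 0.15, adjusted p = 0.0119, against 0.297 without it) and E2F4 (-0.30 ± 0.08, adjusted p = 0.0144, against 0.0629). E2F8 had 6 and 7 reads in these groups and was not tested.

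With Nutlin present, removal of the inhibitor was read from N+PD30 against N+PD24. With the inhibitor kept, E2F5 was 2.15-fold higher (1.10 ± 0.20, limma adjusted p = 0.00304) and E2F2 2.61-fold lower (-1.39 ± 0.23, adjusted p = 0.00197). E2F2 passed the filter on low values only through N+PD24, the group where it is high, and the call was also made with no filter (adjusted p = 0.00358). These were 1 member lower and 1 higher of 9 tested, where 14.8% of all genes were lower and 18.2% higher. Scaling by total counts turned the split of 2020 lower and 2488 higher genes into 1577 and 3052, and leaving out N+PD24 replicate 2 into 1122 and 1534. It also placed TFDP2 above the threshold (adjusted p = 0.0380, against 0.108). Without any 1 of the N+PD24 replicates E2F2 no longer reached the filter of 1 CPM in 3 libraries and could not be tested, while it passed without any N+PD30 replicate. Without N+PD30 replicate 3 E2F1 was also higher (0.69 ± 0.22, adjusted p = 0.0339).

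The response to Nutlin was then compared between cells with and without the CDK4/6 inhibitor. In the continued presence of PD0332991, Nutlin raised E2F7 and lowered E2F5, and these were the 2 members that passed the test. In N+PD30 against PD30, E2F7 was 7.72-fold higher (2.95 ± 0.52, edgeR adjusted p = 0.0101) and E2F5 2.10-fold lower (-1.07 ± 0.15, adjusted p = 0.00383), 1 member in each direction of 9 tested, where 5.64% of all genes were lower and 8.84% higher. Total-count scaling turned the split of 850 lower and 1333 higher genes into 1421 and 1107 and kept both members. Leaving out PD30 replicate 1, 2 or 3 gave 143 and 440, 292 and 858, or 229 and 835, N+PD30 replicate 2 gave 147 and 478, and N+PD30 replicate 3 gave 1353 and 2031. E2F1 (-0.15 ± 0.38) and E2F2 (-0.45 ± 0.36), which Nutlin lowered in cells without PD0332991, did not pass. Without N+PD30 replicate 3, its highest library, E2F7 was 4.93-fold higher (2.30 ± 0.37, adjusted p = 0.00330). The call for E2F7 was lost without PD30 replicate 1 (2.82 ± 0.65, adjusted p = 0.0610). The replicate numbers paired the libraries, and with the block the calls over all genes rose from 2183 to 4375, E2F7 had an adjusted p of 0.000477 and E2F3 was also lower (-0.31 ± 0.08, adjusted p = 0.0308, against 0.114).

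Nutlin was also compared after removal of PD0332991. In N+PD24 against PD24, E2F7 was 2.76-fold higher (1.47 ± 0.28, limma adjusted p = 0.00210) and E2F2 was 2.32-fold higher (1.22 ± 0.22, adjusted p = 0.00153). These folds are on the log2(CPM + 0.5) scale, and alternatives gave E2F2 values from 0.95 to 1.79. E2F2 passed the filter on low values only through N+PD24, and the call was also made with no filter (adjusted p = 0.00329). E2F1, E2F3, E2F4, E2F5, E2F6 and TFDP1 were lower, so that 6 members were lower and 2 higher of 9 tested, where 23.7% of all genes were lower and 13% higher. E2F5 fell most (-1.58 ± 0.21, adjusted p = 0.000252), followed by E2F1 (-1.09 ± 0.29, adjusted p = 0.0130). As N+PD24 replicate 2 had 0.866 CPM of E2F5, this gene passed the filter on low values through PD24, the group where it is high. The E2F5 call was also made with no filter (limma adjusted p = 0.00116). E2F3 (-0.49), E2F4 (-0.39), E2F6 (-0.51) and TFDP1 (-0.42) fell less. Without N+PD24 replicate 2, the calls for E2F1, E2F3, E2F4 and TFDP1 were lost (2 members lower). E2F3 was also lost without PD24 replicate 1 or 3, E2F4 without PD24 replicate 2 or 3, and TFDP1 without PD24 replicate 1. The replicate numbers paired the libraries here. With the replicate block in limma, E2F1, E2F3, E2F4 and TFDP1 had adjusted p of 6.45e-05, 0.000708, 0.00382 and 0.00114. Without any 1 of the N+PD24 replicates E2F2 fell below the filter on low values and was not tested, which left E2F7 as the 1 member that was higher. The split of all genes was 3234 lower and 1774 higher, and 3962 and 1307 with scaling by total counts and 2207 and 797 without N+PD24 replicate 2.

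**Figure D2:**
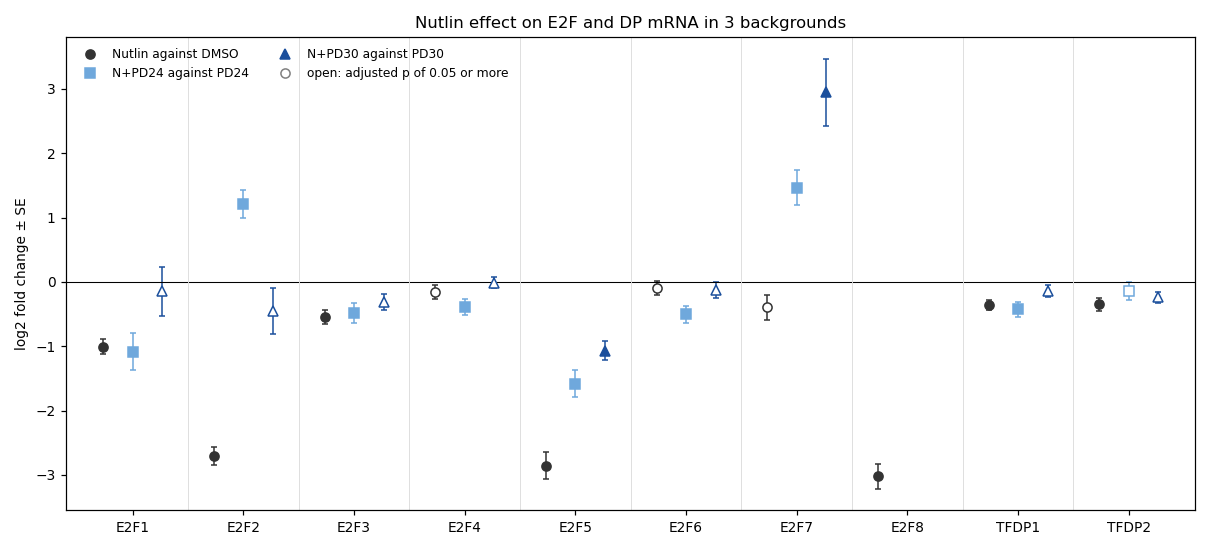
Log2 fold change with SE of each member under Nutlin, without PD0332991 (Nutlin against DMSO), after its removal (N+PD24 against PD24) and in its presence (N+PD30 against PD30). Filled symbols passed an adjusted p of 0.05, and E2F8 was not tested in the groups with PD0332991. E2F7 changes from -0.39 to 1.47 and 2.95, and E2F2 is at -2.71, 1.22 and -0.45. The values after removal are by limma on log2(CPM + 0.5), and the others by edgeR.

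Whether these responses differed was tested directly by an interaction term over 12 libraries. With continuous PD0332991, the response to Nutlin was higher for E2F7, E2F2 and E2F5 (3 members, none lower). By edgeR 7.03% of all genes had a lower and 12.8% a higher response. E2F7 rose, whereas for E2F5 this was a smaller fall (-1.07 against -2.86 without PD0332991). E2F2 changed by -2.71 without PD0332991 and by -0.45 in its presence, where it did not pass. It had 20 to 32 reads per library in PD30 and 9 to 13 in N+PD30. The difference was 3.39 ± 0.59 for E2F7 (adjusted p = 0.00175, and 2.74 ± 0.46 without N+PD30 replicate 3), 2.30 ± 0.35 for E2F2 (adjusted p = 0.000756) and 1.84 ± 0.23 for E2F5 (adjusted p = 0.000287) on the log2 scale. For E2F1 it was 0.92 ± 0.39 (adjusted p = 0.115). After removal of PD0332991, the response was higher for E2F2, E2F8 and E2F7 (3 members, none lower), where 0.586% of all genes had a lower and 0.817% a higher response by limma. These 84 lower and 117 higher genes became 21 and 55 without DMSO replicate 2 and 21 and 56 without Nutlin replicate 2, and 37 and 66, 38 and 59, or 50 and 74 without DMSO replicate 1, DMSO replicate 3 or N+PD24 replicate 2. E2F2 differed by 3.77 ± 0.25 (adjusted p = 9.66e-06) and E2F7 by 1.91 ± 0.39 (adjusted p = 0.0290), which passed in 4 of the 12 fits that left out 1 library (adjusted p up to 0.105). The value of E2F8, 2.87 ± 0.26 (adjusted p = 8.89e-05), compares a fall under Nutlin with groups of 7 and 5 reads, and did not pass by edgeR on the recovered reads (adjusted p = 0.329). E2F8 passed the filter on low values only through DMSO and Nutlin, so its value largely restates the fall under Nutlin alone. With continuous PD0332991 its edgeR value was similar, 2.85 ± 1.22, and did not pass (adjusted p = 0.119).

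The balance between an atypical repressor and an activator was expressed as the ratio of E2F7 to E2F1 reads in each library. Its log2 value was -0.07 ± 0.31 in DMSO, 0.54 ± 0.37 in Nutlin, 1.28 ± 1.14 in PD24, 0.72 ± 1.41 in PD30, 4.06 ± 0.72 in N+PD24 and 3.71 ± 1.53 in N+PD30 (SD, n = 3). In the 6 libraries with both inhibitors, E2F7 had between 5.62 and 42.9 reads per E2F1 read, and in the other 12 libraries between 0.831 and 6.07. The ratio is not corrected for transcript length, so its change between groups is meaningful rather than its absolute size. The 9 comparisons were tested by exact two-sided permutation tests, in which 3 against 3 libraries cannot go below p = 0.1, with an adjusted p of 0.18. This smallest p was reached for both combination groups against Nutlin and against the matching PD0332991 group, and for PD24 against DMSO, where the groups did not overlap. Replicate 3 had the highest ratio in 5 of the 6 groups.

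E2F target genes are read out by a list of 27 genes of DNA replication, such as CDC6, MCM2 and RRM2, which was compiled from general knowledge. In PD30 against DMSO all 27 were lower by edgeR, where 25.4% of all genes were lower. The median log2 fold change was -3.92, and 0.00 over all genes. RRM2, a subunit of ribonucleotide reductase, had 552 ± 38.6 CPM in DMSO and 5.65 ± 1.6 CPM in PD30. The 27 genes were also lower in PD24 (median -3.22), and in N+PD30 (-3.23) and N+PD24 (-2.90) against Nutlin. The shares of all genes that were lower were 20.8%, 24.7% and 20.5% in the same order. Under Nutlin alone 20 were lower and 1 higher, with a median of -0.80, where 28% of all genes were lower and 26.6% higher. The gene that rose was TYMS, thymidylate synthase, with 85.1 ± 1.84 CPM in DMSO and 114 ± 4.87 CPM in Nutlin. In PD30 against PD24, 12 of the 27 were lower and none higher (median -0.31), where 12.9% of all genes were lower and 12.2% higher. In N+PD30 against PD30, 2 of the 27 were lower and 2 higher, near the shares over all genes, 5.64% and 8.84%. The higher genes were TYMS and PCNA (2.06 ± 0.17 and 1.59 ± 0.10, edgeR adjusted p = 0.000272 and 7.30e-05). In N+PD24 against PD24, 15 of 26 tested genes were lower and 2 higher by limma (median -0.74, and -0.04 over all genes). Of all genes, 23.7% were lower and 13% higher.

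The partners and regulators of E2F proteins were considered next. Of the pocket proteins, RB1 had 139 ± 9.45 CPM in DMSO, 142 ± 14.9 CPM in Nutlin, 47.8 ± 8.67 CPM in PD24 and 61.9 ± 2.54 CPM in PD30, and RBL1 had 49.7 ± 6.73, 23.6 ± 1.82, 10.3 ± 1.38 and 7.30 ± 1.68 CPM in the same groups. Kept inhibitor thus lowered RB1 relative to DMSO (-1.18 on the log2 scale, edgeR adjusted p = 3.01e-06) and RBL1 (-2.78, adjusted p = 1.84e-06), whereas RBL2 did not pass (-0.01, adjusted p = 0.916). In PD24 against DMSO all 3 pocket proteins were lower, and RBL2 had 47.8 ± 8.38 CPM against 77.9 ± 1.92 CPM (-0.68, adjusted p = 0.00239). RBL2 was also lower in N+PD24 than in Nutlin (-0.73, limma adjusted p = 0.00161). Of 7 genes of the MuvB core with MYBL2 and FOXM1, 6 were lower in PD30, led by MYBL2 (-4.97, adjusted p = 5.27e-09) and LIN9 (-4.57, adjusted p = 9.26e-07), and 5 were lower in Nutlin. Of 9 partners of E2F6 in its Polycomb complex, 6 were lower under Nutlin, led by PCGF6 (-1.07, adjusted p = 0.000150), and 2 were lower and 1 higher in PD30. Of 9 G1 cyclins and kinases, 6 were lower and 3 higher in PD30, with CCNE2 (-6.99, adjusted p = 9.56e-09) as the largest fall and CCND2 (2.30, adjusted p = 5.02e-07) as the largest rise. Under Nutlin, 5 of these 9 were lower and none higher. Of 7 CDK inhibitors, 3 were lower and 2 higher in Nutlin, with CDKN1A as the largest rise under Nutlin (4.56, adjusted p = 1.65e-07). In PD30, 4 CDK inhibitors were lower, CDKN1A among them (-0.57, adjusted p = 0.0103), and CDKN2B was higher (0.37, adjusted p = 0.0352). Beside these counts stand the shares over all genes, 28% lower and 26.6% higher in Nutlin and 25.4% lower and 22.9% higher in PD30. All 8 genes of a p53 target list rose under Nutlin without PD0332991, after its removal (limma) and in its presence, with medians of 3.06, 3.38 and 3.11. Each median is relative to its own group without Nutlin. In N+PD30 against Nutlin, 3 of the 8 were lower by edgeR. These were MDM2 (-1.70, adjusted p = 2.53e-05), CDKN1A (-0.78, adjusted p = 0.000998) and TP53I3 (-0.76, adjusted p = 0.00214). BTG2 (1.09) and ZMAT3 (0.56) were higher, where 24.7% of all genes were lower and 24.3% higher.

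The genes whose levels followed each member most closely were sought among 13559 genes with a mean of at least 1 CPM, by Pearson correlation of log2(CPM + 0.5) over the 18 libraries. These correlations are descriptive, as the libraries share their 6 conditions. E2F8 was followed by FAM111B (r = 0.996), PSMC3IP and WDR76, E2F1 by CDC20 (r = 0.994), SLC29A1 and RFC2, and TFDP1 by DSN1 (r = 0.993), EXOSC8 and ERLIN1. The closest genes were TP73 for E2F2 (r = 0.949), TRIM33 for E2F3 (0.971), DDX31 for E2F4 (0.952), CTTNBP2NL for E2F5 (0.972), SETD2 for E2F6 (0.938) and LRRC37A4 for TFDP2 (0.975). E2F7 had the least close partner, SMEK1 (r = 0.921), followed by APAF1 and PCNA. Between members, E2F1 correlated with TFDP1 at r = 0.963 and with E2F8 at 0.941, but with E2F7 at 0.585 and with E2F4 at -0.14.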

How the data were processed

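RNA-seq of 18 SJSA-1 libraries was aligned by the authors to hg19 with TopHat and Bowtie2, and reads per gene were counted with HTSeq 0.6.0 under a reverse-strand setting. For 15 libraries the deposited values are raw counts. For the 3 N+PD24 libraries the deposited signal is counts divided by a size factor, from which whole reads were recovered for 100% of the values (tolerance 0.001 reads). A deposited table of the authors' own DESeq2 fold changes and p-values for Nutlin against DMSO, and 2 tables of size-factor-scaled counts of libraries used here as raw counts, were not used. Count comparisons were tested with edgeR 4.0.16 (quasi-likelihood test, TMM scaling, filterByExpr, only the groups compared) and those with N+PD24 with limma 3.58.1 on log2(CPM + 0.5), TMM-scaled, for genes with at least 1 CPM in 3 libraries. Calls are at a Benjamini-Hochberg adjusted p under 0.05 over all genes. The printed CPM levels are per library total. Simulated data with a fixed spread and no replicate effect were run for PD30 against DMSO, N+PD24 against Nutlin and the interaction with PD30. The other comparisons were not simulated. Intervals on E2F8 reads cover counting error only. All 10 members are named, with the 3 genes closest to each and the largest changes of each list. Of the blood markers, 1 is not reported here. The members and lists were chosen with earlier results of these data known. Same-numbered libraries deviated together (r over 0.1 in 22 of 27 pairs), and in every pair for PD30 against PD24, N+PD24 against Nutlin, N+PD30 against PD30 and N+PD24 against PD24. Alternatives were DESeq2 1.42.0, other scalings, filters and pseudocounts, a replicate block, and leaving out each library. N+PD24 fits with edgeR and a block together were chosen after seeing the data.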

Additional observations from a re-analysis of the deposited data

Results flagged for a closer look

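The response to Nutlin differed between cells without PD0332991 and cells with it for several members, as tested by an interaction term over 12 libraries. With PD0332991 kept for all 30 h (edgeR), the difference on the log2 scale was 3.39 for E2F7 (adjusted p = 0.00175), 2.30 for E2F2 (adjusted p = 0.000756) and 1.84 for E2F5 (adjusted p = 0.000287). After its removal (limma), it was 3.77 for E2F2 (adjusted p = 9.66e-06), 2.87 for E2F8 (adjusted p = 8.89e-05) and 1.91 for E2F7 (adjusted p = 0.0290). E2F8 had 0 to 4 reads in each library with PD0332991, and its value was 2.77 with an adjusted p of 0.329 by edgeR on the recovered reads. With PD0332991 kept, the E2F8 value was 2.85 (edgeR adjusted p = 0.119).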

How the results depend on the processing

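Of 1408 alternative values for 105 member results, 1349 kept their side of the threshold, 40 lost the call, 19 gained it, and no called value changed sign. Of the 1349, 44 values of 16 results that were not called in either fit had the other sign. In PD24 against DMSO, 1 member (E2F4) was higher, in place of 0, with DESeq2, with its size factors, in 1 fit over 15 libraries and with the replicate block, and 0 to 1 without 1 library. In PD30 against PD24, members lower were 0 with DESeq2 size factors or total-count scaling, 3 with the replicate block and 0 to 1 without 1 library, and members higher were 0 to 1 (of 2) without 1 library. In N+PD24 against Nutlin, 1 member (E2F5) was higher by edgeR on recovered reads, with or without the replicate block, and with no filter, and 3 to 5 members were lower without 1 library. In N+PD30 against N+PD24, 2 members were higher with total-count scaling, and without 1 library 0 to 1 were lower and 1 to 2 higher. In N+PD30 against PD30, 2 members were lower with the replicate block and 0 to 1 higher without 1 library. In N+PD24 against PD24, 2 to 6 were lower and 1 to 2 higher without 1 library. The cause was not tested, except where E2F2 or E2F8 dropped below the filter. In the other comparisons r was not over 0.1 in every same-numbered pair, though it was 0.0923, 0.169 and 0.611 in PD24 against DMSO. Replicate 3 still held the highest E2F3 and E2F7 level in 6 of 6 groups. In these comparisons the block gave E2F7 -0.40 in Nutlin against DMSO (adjusted p = 0.0352) and E2F3 -0.22 in PD30 against DMSO (adjusted p = 0.0369). It gave E2F4 0.30 in PD24 against DMSO (adjusted p = 0.0285). Over all genes, calls moved from 5137 to 8378 in N+PD24 against Nutlin and from 5008 to 8041 in N+PD24 against PD24 by edgeR on recovered reads with the block, and from 201 to 116 by edgeR and 391 with the block in the interaction after removal. Depth limits E2F8, with 0 to 4 reads per library under PD0332991.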
